A study of Homo sapiens with 19 samples.

Results

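Aminoacyl-tRNA synthetases attach each amino acid to its transfer RNA, and the transcripts of 36 of their genes were examined here, 20 for cytosolic enzymes and 16 for mitochondrial enzymes. The members were listed by gene symbol, and all 36 were found among the 23441 symbols of the deposited count table. The list was chosen because the counts of AARS, the alanyl-tRNA synthetase gene, differed several-fold between replicate numbers. Differences between replicate numbers are therefore given as a description with no test, while differences between the cell pools and the positions of HIF peaks were not used in that choice.

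The cells were 786-O, an established cell line of VHL-defective clear cell renal carcinoma. They lack a working VHL protein, so hypoxia-inducible factor (HIF) is not degraded. According to the paper, they make no wild-type HIF-1α. Their own HIF1A transcripts are truncated or fused, and the paper predicts that these encode no active factor. Pools of these cells had been transduced with the empty lentiviral vector pRRL (control), with pRRL-HIF-1α (HIF-1α re-expressing) or with pRRL-HIF-2α (HIF-2α overexpressing), so all 3 pools share the VHL defect and carry a vector. RNA-seq libraries of polyadenylated RNA were made in triplicate from each pool (9 libraries, numbered 1 to 3 in each pool), and the sources used here do not say what a number shares across pools. ChIP-seq gave 7 lists of HIF peaks, 1 library per antiserum and pool. Each pool is 1 transduction as far as the sources say, so the p-values below measure the spread between libraries, which may be technical.

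The cytosolic enzymes charge the transfer RNAs of the main translation machinery, and 8 of those listed are known components of the multi-synthetase complex. The enzymes with the suffix 2 are also encoded in the nucleus but serve protein synthesis inside mitochondria, while GARS and KARS each encode both forms. Several cytosolic synthetase genes are known targets of ATF4, the transcription factor of the amino acid response and the unfolded protein response, which binds C/EBP-ATF response elements.

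The promoter letters are shown first because the cytosolic and the mitochondrial genes differed in them. RefSeq promoter windows of 300 bases (250 before to 50 after the start, GRCh38.p14) were matched for 30 members, 16 cytosolic and 14 mitochondrial. DARS, LARS, VARS, YARS, AARS2 and VARS2 had no entry. The core of the C/EBP-ATF element, spelled TGATGNAA and searched on both strands, was held by 6 of the 16 cytosolic windows (37.5%) and by 1 of the 14 mitochondrial windows (7.14%), beside 3.62% of all 35116 promoter windows and 1.80% of the 11208 windows of genes tested for expression. All 6 cytosolic matches read TGATGCAA, which is TTGCATCA on the other strand. The 30 bases around each match are given 5′ to 3′ on the strand where the match reads TGATGNAA, with the match in capitals.
AARS (chr16:70289675-70289704, plus strand): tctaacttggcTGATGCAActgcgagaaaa
CARS (chr11:3057407-3057436, plus strand): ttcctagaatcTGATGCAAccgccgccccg
IARS (chr9:92293692-92293721, plus strand): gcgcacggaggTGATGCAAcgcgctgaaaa
MARS (chr12:57488053-57488082, minus strand): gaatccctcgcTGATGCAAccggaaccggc
NARS (chr18:57621804-57621833, minus strand): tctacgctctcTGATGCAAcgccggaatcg
TARS (chr5:33440956-33440985, minus strand): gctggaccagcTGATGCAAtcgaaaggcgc
YARS2 (chr12:32756076-32756105, minus strand): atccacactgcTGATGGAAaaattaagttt

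The match began 187 bases before the start in AARS and 197 bases before it in YARS2. In CARS, IARS, MARS, NARS and TARS it lay between 13 bases before and 14 bases after the start. A further pair of promoters is shown over the 250 bases before the start, because AARS holds the match and WARS, whose level differed most between replicate numbers, does not. Both are on the minus strand of GRCh38.p14, and capitals mark the match, which reads TTGCATCA here.
AARS (chr16:70289507-70289756): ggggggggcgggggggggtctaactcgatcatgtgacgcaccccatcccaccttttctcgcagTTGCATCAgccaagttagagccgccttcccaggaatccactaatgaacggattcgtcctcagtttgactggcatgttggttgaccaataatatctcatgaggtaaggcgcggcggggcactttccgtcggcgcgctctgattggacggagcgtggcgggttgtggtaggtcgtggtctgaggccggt
WARS (chr14:100376328-100376577): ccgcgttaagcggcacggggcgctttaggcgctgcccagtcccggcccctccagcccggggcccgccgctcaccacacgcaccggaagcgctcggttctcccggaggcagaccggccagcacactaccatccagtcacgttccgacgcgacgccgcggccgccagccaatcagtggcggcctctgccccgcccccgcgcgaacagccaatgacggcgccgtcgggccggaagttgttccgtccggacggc

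The hypoxia response element core, spelled ACGTG or GCGTG on either strand, was in 12 of 16 cytosolic and 12 of 14 mitochondrial windows, beside 48.4% of all windows and 61.9% of those of tested genes. A match is a run of letters and not a measured binding site.

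Library totals were 27852754 to 54287621 counts, with 38999986 to 42239869 in the replicate 1 libraries. All 36 members passed the filter on low counts, as did 14225 genes in all, and PARS2, the mitochondrial prolyl enzyme, had the fewest counts (195 in its lowest library). HIF1A counts were 30.4, 36.7 and 152 CPM (counts scaled to a common total with TMM factors) in control libraries 1, 2 and 3, against 171, 1682 and 473 in HIF-1α re-expressing libraries and 15.3, 30.4 and 17.5 in HIF-2α overexpressing libraries. Control library 3 thus lay near HIF-1α re-expressing library 1. EPAS1, the HIF-2α gene, was at 456, 224 and 162 CPM in control, at 575, 627 and 397 CPM in HIF-1α re-expressing and at 946, 3244 and 879.8 CPM in HIF-2α overexpressing libraries. The table does not separate reads of the viral insert from reads of the endogenous gene, so these cannot be told apart. For HIF1A the endogenous reads are those of the truncated or fused transcripts named above. Markers of the renal carcinoma line summed to 4564 to 7151 CPM, while blood cell and endothelial markers summed to at most 0.759 and 1.27 CPM. Among the 6 renal markers 3 were higher and 3 lower in the mean of replicate 1. The log2 CPM difference from the other libraries was -2.94 for CDH6, -0.93 for PAX2, 0.56 for KRT18 and 0.39 for PAX8, and PAX2 alone had every replicate 1 library below all others. Their part in the differences between replicate numbers was not tested.

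The summed cytosolic synthetase transcripts were high in all 3 replicate 1 libraries, whatever the cell pool, and the summed mitochondrial ones were not. The 20 cytosolic genes summed to 7067, 6912 and 6831 CPM in replicate 1 of the control, HIF-1α re-expressing and HIF-2α overexpressing pools. They summed to 4548, 3461 and 3826 CPM in replicate 2 and to 3375, 2904 and 3243 CPM in replicate 3. Replicate 1 was 1.78-fold the mean of the other libraries in control, 2.17-fold in HIF-1α re-expressing and 1.93-fold in HIF-2α overexpressing cells. The 16 mitochondrial genes summed to between 581 and 687 CPM in every library, with the same ratios at 1.04, 0.953 and 1.14. By single gene, this ratio in control was 0.840 to 0.936 for FARSA, FARSB, HARS, KARS and QARS. It was above 1 for every other cytosolic gene. In bulk RNA, fewer cells expressing a gene and less RNA per cell cannot be told apart.

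**Figure D1:**
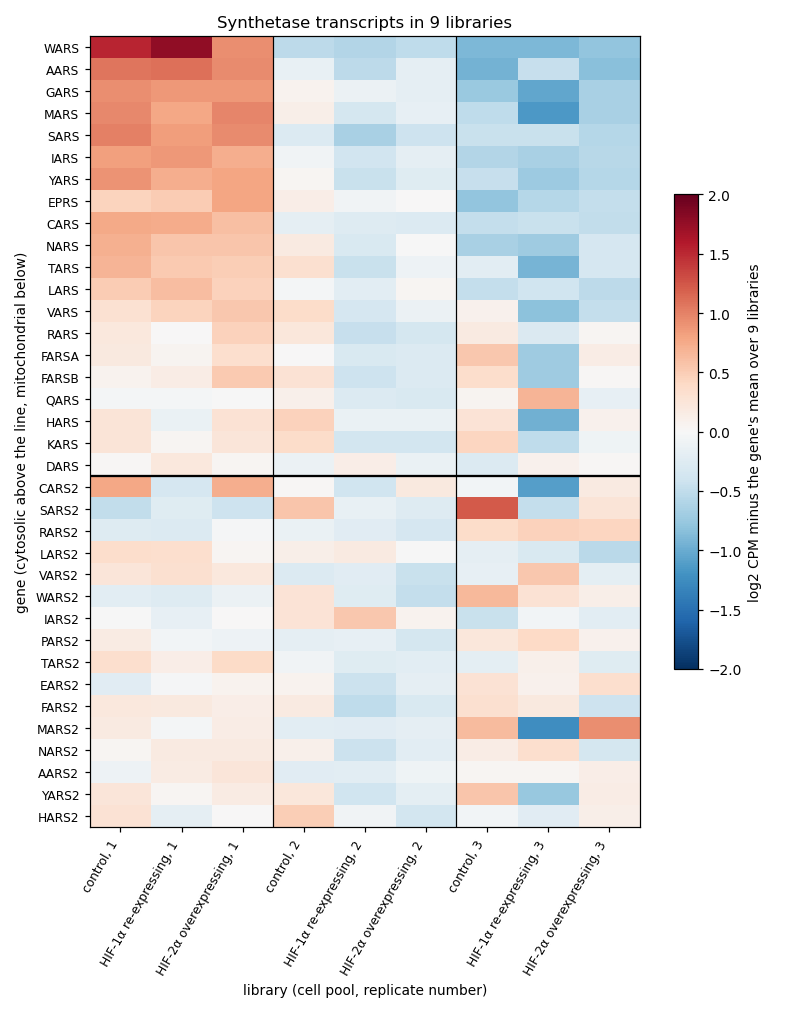
Log2 CPM of each of the 36 synthetase genes minus its mean over the 9 libraries, with libraries in columns (3 per replicate number) and genes in rows, ordered within each compartment by their range over replicate numbers. The upper cytosolic rows, from WARS to LARS, are red in the 3 replicate 1 columns and blue in most others, whereas the lowest cytosolic rows and the mitochondrial rows show no such block.

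For 12 of the 20 cytosolic genes, all 3 replicate 1 libraries lay above all 6 others, and for no member did they all lie below. This held for 1 of the 16 mitochondrial genes, TARS2, the threonyl enzyme. Over all genes tested, 6.41% had replicate 1 above all others and 4.67% had it below, and as AARS was chosen on this difference the counts of members are a description. The 12 genes were AARS, CARS, EPRS, GARS, IARS, LARS, MARS, NARS, SARS, TARS, WARS and YARS. By catalytic class they were 7 of the 10 class I and 5 of the 10 class II genes. EPRS, which holds both the glutamyl and the prolyl enzyme, was counted under class I alone. Of the 8 genes of the multi-synthetase complex, 4 were among them.

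The range of a gene is the difference on the log2 scale between the highest and the lowest of its 3 mean log2 CPM values, 1 for each replicate number. Its median was 1.11 for cytosolic genes (2.16-fold), 0.46 for mitochondrial genes (1.37-fold) and 0.56 for all genes. The replicate number held a median of 91.2% of the variance of log2 CPM in the cytosolic genes, 55.9% in the mitochondrial genes and 35.9% in all genes.

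WARS, the tryptophanyl enzyme, had the largest range among the members, 2.27 (4.81-fold), which was at percentile 97.1 of all genes. It was at 383, 92.5 and 71.5 CPM in control libraries 1, 2 and 3, at 453.5, 88.6 and 71.1 CPM in HIF-1α re-expressing libraries and at 252.5, 93.3 and 77.2 CPM in HIF-2α overexpressing libraries. The replicate 1 libraries were well apart from the rest, with the HIF-2α overexpressing one the lowest of the 3. WARS is also known as an interferon-inducible gene. Of 10 interferon response genes listed, 5 were higher in the mean of replicate 1. None had all replicate 1 libraries above the others, and 1, GBP2, had them all below. In control libraries 1, 2 and 3 OAS1 was at 73.6, 8.39 and 6.02 CPM, while GBP2 was at 1.86, 5.95 and 15.7 CPM. The part of the interferon response in the WARS level was not tested.

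AARS followed with a range of 1.79 (3.45-fold). Its levels were 658, 283 and 162 CPM in control, 673, 219.5 and 227 CPM in HIF-1α re-expressing and 603, 276 and 176 CPM in HIF-2α overexpressing libraries. In the control pool alone replicate 1 and replicate 3 differed by 2.02 on the log2 scale. The order of replicates 2 and 3 was not shared by the pools, since replicate 3 was slightly above replicate 2 only in HIF-1α re-expressing cells.

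GARS, the glycyl enzyme, had a range of 1.70. It was at 793, 437 and 248 CPM in control, 764, 386 and 202 CPM in HIF-1α re-expressing and 759, 369 and 267 CPM in HIF-2α overexpressing libraries. Here the 3 replicate numbers formed 3 separate levels that did not overlap. MARS, the methionyl enzyme that charges the initiator transfer RNA as well, had a range of 1.67. Its levels were 302, 168.5 and 108 CPM in control, 263, 122 and 69.7 CPM in HIF-1α re-expressing and 303, 137 and 98.5 CPM in HIF-2α overexpressing libraries. As for GARS, every replicate 3 library was below every replicate 2 library.

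SARS, the seryl enzyme, was at 476, 195 and 172.5 CPM in control, 421, 151 and 172.5 CPM in HIF-1α re-expressing and 455, 178 and 159 CPM in HIF-2α overexpressing libraries, with a range of 1.42. Replicates 2 and 3 overlapped. IARS, the isoleucyl enzyme, was at 960.4, 515 and 363 CPM in control, 990.2, 418 and 345 CPM in HIF-1α re-expressing and 901, 482 and 371 CPM in HIF-2α overexpressing libraries, with a range of 1.40. Its replicate 3 libraries were below all others.

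**Figure D2:**
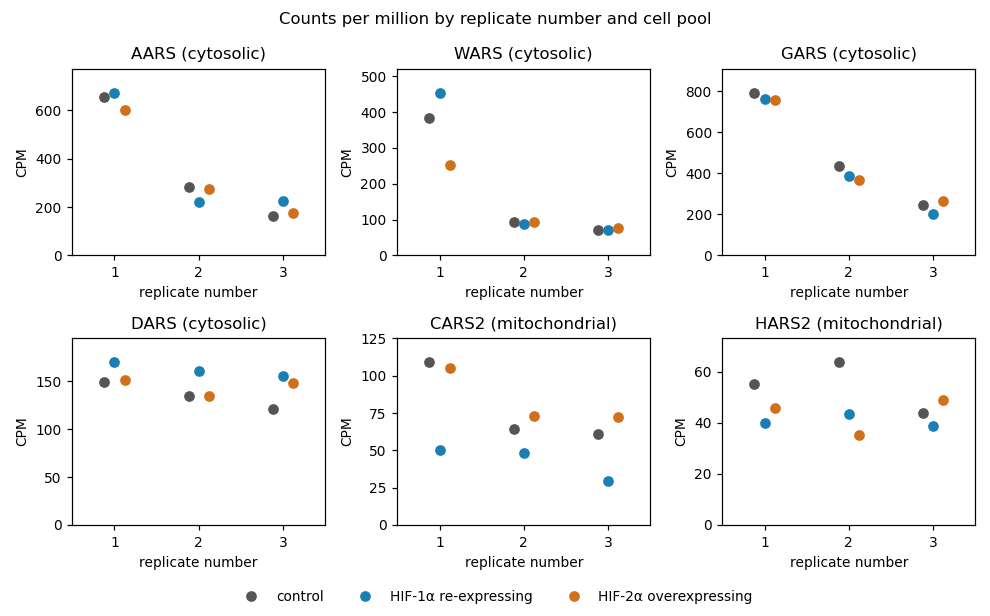
CPM (linear axes from 0) of 6 synthetase genes against replicate number, 1 point per library, coloured by cell pool. AARS, WARS and GARS are high at replicate 1 in every pool, the points of DARS and HARS2 at replicate 1 overlap those at the other numbers, and CARS2 is lowest in the HIF-1α re-expressing library of each replicate number.

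The other cytosolic genes ran from a range of 1.39 in YARS, the tyrosyl enzyme, down to 0.15 in DARS, the aspartyl enzyme. EPRS, which joins the glutamyl and prolyl enzymes in 1 chain, was at 1.19, CARS at 1.18, NARS at 1.17, TARS at 1.05, LARS at 0.99 and VARS at 0.84. VARS missed the separation because control replicate 2 (195 CPM) was above control replicate 1 (188 CPM). The remaining 7 genes, RARS, FARSA, FARSB, QARS, HARS, KARS and DARS, had ranges of 0.15 to 0.42, under the median of all genes. DARS was at 149.9, 135 and 121 CPM in control, 169.9, 161 and 156 CPM in HIF-1α re-expressing and 152, 134 and 149 CPM in HIF-2α overexpressing libraries. Replicate 1 was the highest within each pool, but control library 1 and HIF-2α overexpressing library 1 lay within the 121 to 161 CPM of the replicate 2 and 3 libraries, and HIF-1α re-expressing library 1 was the highest of the 9. QARS had 233 CPM in HIF-1α re-expressing library 3 and 118 to 157 CPM elsewhere.

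Among the mitochondrial genes the largest ranges were those of CARS2, the cysteinyl enzyme (0.71), SARS2 (0.71) and RARS2 (0.65). RARS2, the arginyl enzyme, was at 33.4, 36.4 and 51.7 CPM in control, 33.1, 34.02 and 55.1 CPM in HIF-1α re-expressing and 39.4, 31.5 and 53.6 CPM in HIF-2α overexpressing libraries. Its high libraries were those of replicate 3, as they were for EARS2. SARS2, the seryl enzyme, had 7.97, 16.4 and 26.1 CPM in control but 9.46, 10.1 and 8.005 CPM in HIF-1α re-expressing and 8.38, 9.32 and 13.3 CPM in HIF-2α overexpressing libraries, so the libraries differed most within the control pool. The smallest range of all members was that of HARS2, the histidyl enzyme (0.09), with 55.3, 63.6 and 43.8 CPM in control, 40.0, 43.4 and 38.8 CPM in HIF-1α re-expressing and 45.8, 35.2 and 49.0 CPM in HIF-2α overexpressing libraries. The start sites of HARS2 and of its cytosolic counterpart HARS are 85 bases apart on chromosome 5 and point away from each other, and HARS had a range of 0.34. YARS2 (0.27) had the next smallest range after DARS.

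In 12 of the 13 pairs of a cytosolic and a mitochondrial gene that share a symbol stem (AARS and AARS2, for example) the cytosolic gene had the larger range. The ranges of the cytosolic and the mitochondrial gene were 2.27 and 0.55 for tryptophan (WARS, WARS2), 1.79 and 0.28 for alanine (AARS, AARS2), 1.67 and 0.32 for methionine (MARS, MARS2) and 1.39 and 0.27 for tyrosine (YARS, YARS2). For arginine the order was the other way, with 0.42 for RARS and 0.65 for RARS2. For phenylalanine, whose cytosolic enzyme has 2 kinds of subunit, the ranges of FARSA, FARSB and FARS2 were 0.39, 0.38 and 0.39. Levels per kilobase of the canonical transcript had a median of 68.5 CPM for cytosolic and 8.68 CPM for mitochondrial genes, from 193 CPM per kilobase for GARS to 3.75 for PARS2.

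The promoter match and the range can be set side by side as a description. All 6 cytosolic genes whose window holds TGATGNAA were among the 12 with replicate 1 above all others, with ranges of 1.05 to 1.79. Of the 10 cytosolic genes with a window and no match, 4 were among the 12 (EPRS, GARS, SARS and WARS), and the median range of the 10 was 0.41. YARS2, the mitochondrial gene with a match, had a range of 0.27. Among the amino acid response genes described next, 5 of the 27 windows found held TGATGNAA, beside 1.80% of those of tested genes. AARS, on which the list was chosen, is among the 6, and the part of the match in these levels was not tested.

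Many genes of related pathways were high in the same libraries. The amino acid response list held 34 tested genes (amino acid synthesis and uptake and stress genes, many of them ATF4 targets). Their median range was 1.44, and 20 had all replicate 1 libraries above the others, beside 6.41% of all genes tested. The ATF4 transcript itself did not show this separation and had a range of 0.51, with replicate 1 higher by 0.42 on the log2 scale. RNA-seq does not measure the ATF4 protein, and its part in these levels was not tested. The mean of replicate 1 was higher than that of the other libraries for 31 of the 34. It was lower for DDIT4, VLDLR and ALDH18A1. The largest ranges were those of CHAC1 (3.40), which degrades glutathione, SLC7A11 (3.20), the cystine transporter, CTH (2.99), which makes cysteine, and PSAT1 (2.92), which acts in serine synthesis. Of 14 endoplasmic reticulum chaperones 12 showed the same separation, with a median range of 1.39, led by HYOU1 (2.28), SDF2L1 (2.07), HSPA5 (1.87) and CRELD2 (1.83). These lists were chosen with earlier results of these data known, so their counts are a description. The part of these pathways in the synthetase levels was not tested. The scaffold proteins of the multi-synthetase complex (AIMP1, AIMP2 and EEF1E1) had ranges of 0.30 to 0.43 and none showed the separation. It was shown by 0 of 5 cytosolic elongation factors, by 2 of 13 mitochondrial translation factors and by 1 of 4 kinases of eIF2α.

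**Figure D3:**
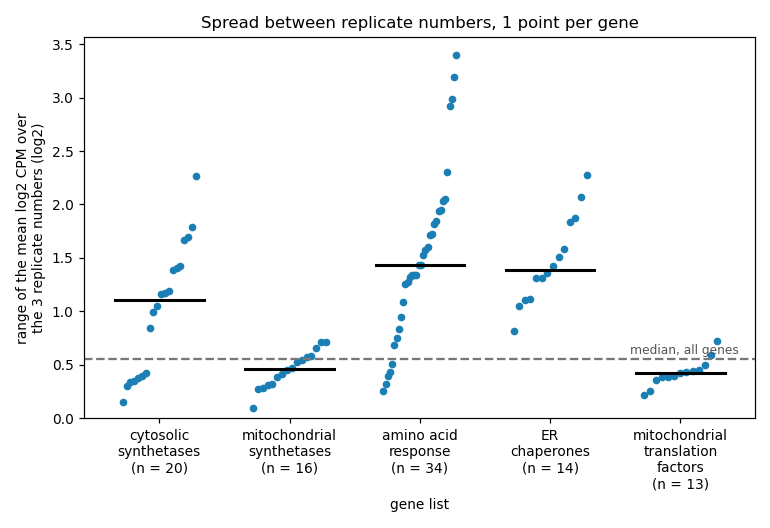
Range of the mean log2 CPM over the 3 replicate numbers, 1 point per gene in rising order within each list, with a black bar at the list's median and a dashed line at the median of all genes tested (0.56). Cytosolic synthetases (median 1.11), amino acid response genes (1.44) and endoplasmic reticulum chaperones (1.39) lie mostly above the line, and mitochondrial synthetases (0.46) and translation factors (0.42) mostly below it.

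The gene patterns most like AARS were sought over the 9 libraries, which fall into 3 per replicate number and are not independent points. Pearson's r of log2 CPM with AARS had a median of 0.911 over the other 19 cytosolic genes, with 10 above 0.9, and a median of 0.132 over the mitochondrial genes, with 0 above 0.9. Over all 14224 other genes 127 were above 0.9. CARS (0.982), IARS (0.981) and LARS (0.980) were the closest members. The 10 closest genes outside the list were DENND2D (0.982), GPR1, CHAC1, DPAGT1, MOCOS, MICAL1, CTH, VIP, ASNS and PCK2 (0.967). VIP was at 1.04 to 1.99 CPM in the replicate 1 libraries and at most 0.114 CPM elsewhere, so its r rests on few counts. ASNS, the asparagine synthetase gene, was at 304, 93.7 and 63.4 CPM in control, 289.8, 67.7 and 54.3 CPM in HIF-1α re-expressing and 319, 87.3 and 67.2 CPM in HIF-2α overexpressing libraries.

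Re-expression of HIF-1α was compared with control to ask whether the synthetase genes respond to the factor itself. AARS and WARS did not differ detectably between these pools, and CARS2 was the only member that passed the threshold in the edgeR fit that takes out replicate number. Without a block, edgeR's quasi-likelihood test called 0 of 36 members at an adjusted p under 0.05, as it called 0% of all 14225 genes. At an unadjusted p under 0.05 there were 4 members, all lower (CARS2, HARS, KARS and YARS2), and DESeq2 without a block called 0 members and 5.25% of all genes. With the replicate number as a block, edgeR called 7.96% of all genes, 769 higher and 363 lower, and 1 of 36 members. A further 9 members were lower at an unadjusted p under 0.05 and none was higher, beside 2653 higher and 2068 lower genes in all.

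CARS2 was at 109, 64.6 and 61.0 CPM in control and at 50.2, 48.1 and 29.6 CPM in HIF-1α re-expressing libraries, and the groups did not overlap. HIF-1α re-expressing cells had 0.461, 0.745 and 0.485 of the control level within replicates 1, 2 and 3. In the edgeR fit with the block the log2 fold change was -0.85 (SE 0.19, n = 3 libraries per pool, adjusted p = 0.0399, Benjamini-Hochberg over all genes), and without the block it was -0.87 (SE 0.30, adjusted p = 0.191). The call with the block held in 3 of 9 fits that each left out 1 library and was lost in the other 6, namely without any of the HIF-1α re-expressing libraries, without HIF-2α overexpressing library 1 and without control library 2 or 3, with adjusted p up to 0.197. The fold change was negative in all 9, from -1.09 to -0.74. DESeq2 with the block called 5 members, all lower: CARS2 and, besides it, HARS, KARS, TARS and YARS2, with adjusted p of 0.00140 to 0.0345. That fit called 21.6% of all 14017 genes it tested, 1644 higher and 1381 lower, beside the 5 of 36 members, which were all lower.

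HARS was at 84.7, 97.3 and 85.8 CPM in control and at 64.7, 64.4 and 36.4 CPM in HIF-1α re-expressing libraries, which did not overlap (log2 fold change -0.73, SE 0.22, adjusted p = 0.0656 with the block in edgeR). KARS was at 201.5, 216 and 226.5 CPM against 173, 130.5 and 119 CPM, again without overlap (-0.63, SE 0.19, adjusted p = 0.0677). YARS2 was at 26.03, 25.6 and 32.2 CPM against 22.5, 16.6 and 12.99 CPM (-0.70, SE 0.23, adjusted p = 0.0786). These 3 genes did not pass the threshold in the edgeR fit with all libraries, and they belong to the members whose level moved little with replicate number.

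The 3 genes with the largest ranges over numbers did not pass the threshold for HIF-1α re-expression with the block. The log2 fold change was 0.06 (SE 0.20) for AARS, 0.07 (SE 0.21) for WARS and -0.17 (SE 0.17) for GARS, with adjusted p of 0.859, 0.841 and 0.507. MARS, the next by range, had -0.43 (SE 0.17, adjusted p = 0.109), and SARS, IARS and YARS had -0.18, -0.11 and -0.31. The median over the cytosolic genes was -0.21 and over the mitochondrial genes -0.12, beside 0.04 for all genes. The values were positive for 6 of 20 cytosolic and 3 of 16 mitochondrial genes. DARS had the largest positive value among the cytosolic genes (0.26, SE 0.16, adjusted p = 0.260).

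Overexpression of HIF-2α changed no member past the threshold. EdgeR called 0 of 36 members without the block, with 0 at an unadjusted p under 0.05, and 0% of all genes. With the block it called 0.267% of all genes, 16 higher and 22 lower, and 0 members, again with 0 at an unadjusted p under 0.05. DESeq2 called 0 members without and with the block, beside 0.412% and 3.39% of all genes. The smallest p among the members was that of SARS2 without the block (log2 fold change -0.70, SE 0.40, adjusted p = 0.842) and of KARS with it (-0.43, SE 0.19, adjusted p = 0.345). KARS was at 198, 129.9 and 158 CPM in HIF-2α overexpressing libraries, all under the control libraries. AARS had a value of -0.02 (SE 0.20) and CARS2 one of 0.12 (SE 0.19) with the block. Medians were -0.14 for cytosolic and -0.14 for mitochondrial genes, beside -0.01 for all genes.

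**Figure D4:**
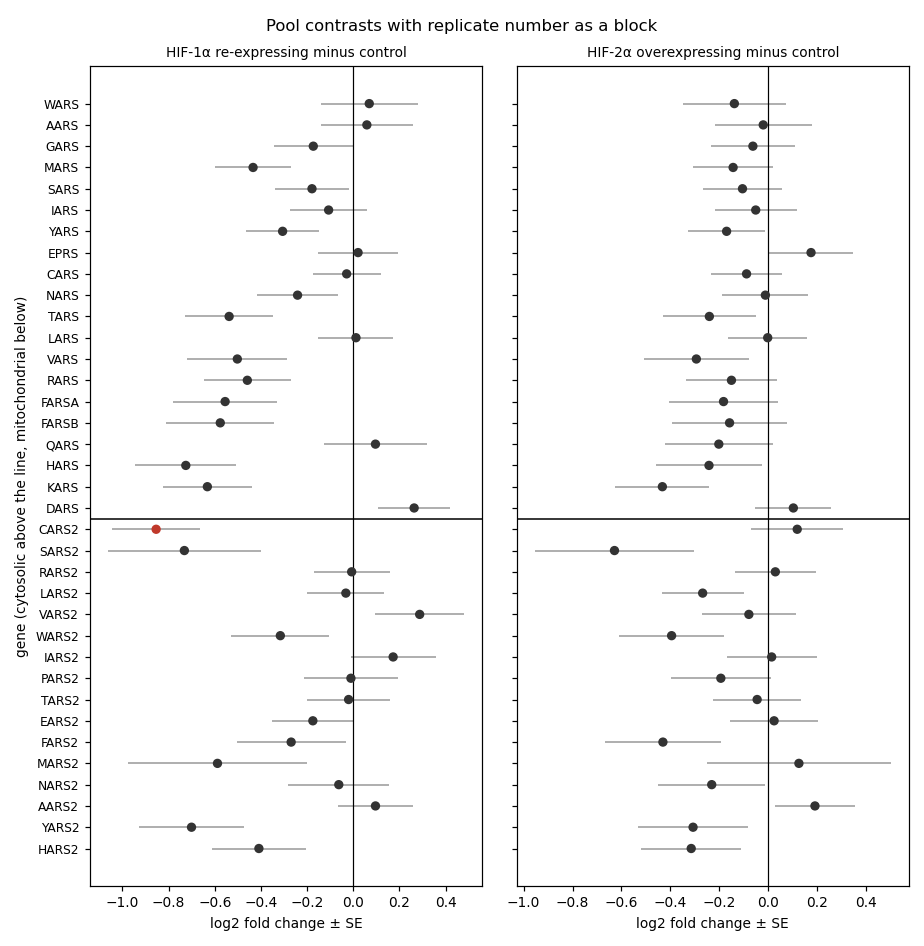
Log2 fold change with its standard error (bars) for each of the 36 genes in the edgeR fit with replicate number as a block, HIF-1α re-expressing minus control on the left and HIF-2α overexpressing minus control on the right, with red for an adjusted p under 0.05. CARS2 on the left is the only red point, at -0.85, and both panels share the control libraries.

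Comparing the HIF-1α re-expressing with the HIF-2α overexpressing pool directly, edgeR called 0 of 36 members without the block and 0.0492% of all genes, and with the block it called 5.93% of all genes and again CARS2. At an unadjusted p under 0.05 without the block there was CARS2 alone, and DESeq2 called 0 members without the block (4.43% of all genes) and CARS2 with it (12.2% of all genes). CARS2 was at 50.2, 48.1 and 29.6 CPM against 105.0, 72.7 and 72.0 CPM, and the groups did not overlap. The log2 fold change was -0.97 (SE 0.19, adjusted p = 0.0209 with the block in edgeR). It was lost without HIF-1α re-expressing library 1 or 3 or HIF-2α overexpressing library 1 or 3, with adjusted p up to 0.101. This contrast shares its HIF-1α re-expressing libraries with the comparison against control.

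HIF peaks near the synthetase genes were counted to show where binding and transcript levels could be read together. The lists give each peak as a position on GRCh37, 2500 bases long and with no height, and 13773 tested genes were placed on the annotation. A peak centre lay within 10 kb of any annotated start of 11 of 36 members in the HIF-1α list of HIF-1α re-expressing cells (30.6%, beside 34.6% of all placed genes). The HIF-2α list held 3 members in control cells (8.33%, beside 5.33%), 2 in HIF-1α re-expressing cells (5.56%, beside 4.22%) and 7 in HIF-2α overexpressing cells (19.4%, beside 14.6%). The HIF-1β lists, HIF-1β being the shared partner, held 7, 10 and 4 members in control, HIF-1α re-expressing and HIF-2α overexpressing cells (19.4%, 27.8% and 11.1%, beside 25.7%, 40.8% and 16.2%). Counted from any annotated start, the shares of members were thus close to or under those of all genes in the HIF-1α and HIF-1β lists. They were a little above them in the HIF-2α lists, where they rest on 2 to 7 genes. From the start of the canonical transcript alone, the HIF-2α lists held 1, 1 and 4 of 36 members, beside 3.14%, 2.44% and 9.93% of placed genes. With 1 library per list there is no replicate check.

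A stricter reading, added after the data were seen, asked for a window that covers the start of the canonical transcript (centre within 1250 bases). At least 1 list had such a window at 9 cytosolic and 4 mitochondrial genes (36.1% of members, beside 43.0% of placed genes). DARS had one in all 7 lists, the only member to do so, with centres 0.215 to 0.508 kb from the start at position 136743196 of chromosome 2 (minus strand). In control cells the HIF-2α window there was chr2:136741438-136743937, and in HIF-1α re-expressing cells the HIF-1α window was chr2:136741722-136744221. The DARS levels given above differed little between pools, with HIF-1α re-expressing cells at 1.13, 1.19 and 1.29 of control within numbers.

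GARS had a window over its start in 4 lists, among them HIF-1α in HIF-1α re-expressing cells (chr7:30632973-30635472) and HIF-2α in HIF-2α overexpressing cells (chr7:30633040-30635539). TARS had one in 3 lists, including the same antisera and pools (chr5:33439742-33442241 and chr5:33439723-33442222). The HIF-1α list also had one at CARS, FARSA, YARS, IARS2 and MARS2. Of these genes only TARS passed a threshold for HIF-1α re-expression in any fit with all libraries, and it was lower (DESeq2 with the block, log2 fold change -0.56, SE 0.21, adjusted p = 0.0345).

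AARS had no window over its start. Its nearest HIF-1α peak (chr16:70284516-70287015) was centred 37.6 kb from the canonical start, at the other end of the gene. CARS2 had no HIF-1α or HIF-2α peak within 10 kb of any start, and its nearest peaks were HIF-1β windows centred 9.40 kb from the canonical start in control and 6.40 kb from it in HIF-1α re-expressing cells, where the window covered another annotated start (0.031 kb away). LARS2 had a peak within 10 kb of some annotated start in all 7 lists, but the centres were over 159 kb from its canonical start, inside the 3′ part of the gene (chr3:45588241-45590740 for HIF-1α). Of the 9 cytosolic genes with a window over the start in any list, 6 had all replicate 1 libraries above the others, as had 6 of the 11 without one.

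**Figure D5:**
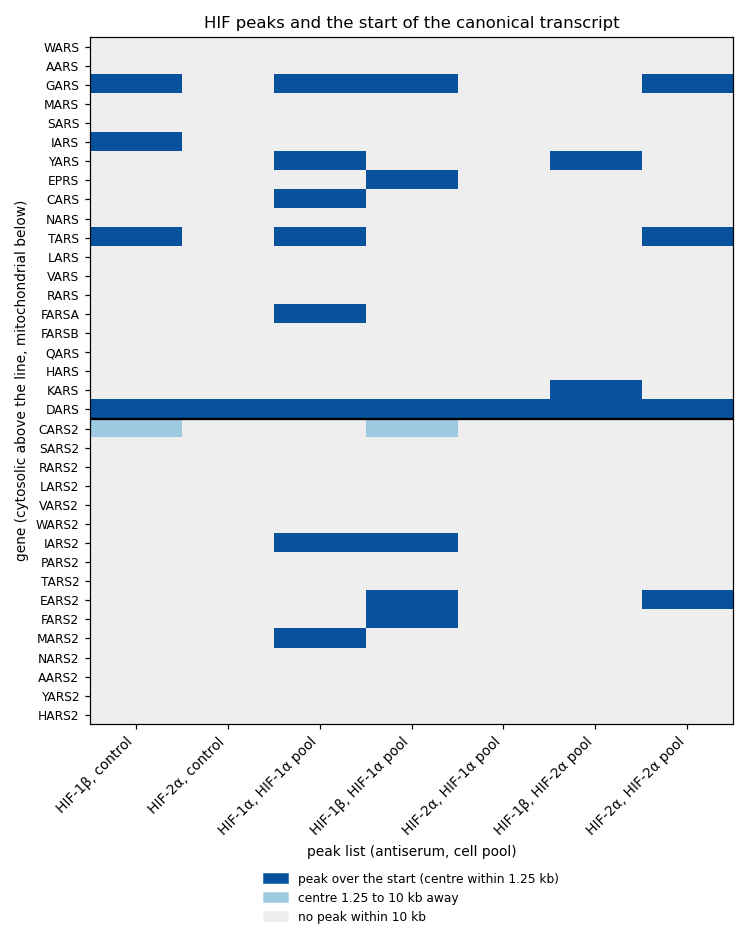
Presence of a HIF peak at each of the 36 genes (rows) in the 7 peak lists (columns, antiserum and cell pool), dark where the window covers the start of the canonical transcript and pale where its centre is 1.25 to 10 kb away. DARS is dark in all 7 lists, GARS in 4 and TARS in 3, and AARS and WARS have none within 10 kb of that start in any list.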

How the data were processed

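The RNA-seq table deposited by the authors holds unnormalized counts by gene symbol for 9 libraries, made with TopHat, Bowtie and HTSeq on GRCh37. For ChIP-seq they deposited peak positions without scores, kept where T-PIC and MACS both called a peak, so the depth behind them is unknown. The counts were fitted over 14225 genes (filterByExpr, TMM factors) with edgeR 4.0.16 in R 4.3.3, by the quasi-likelihood test with Benjamini-Hochberg adjustment at 0.05. Cell pool was the only term in the main design, the study's methods naming no block, and an alternative added replicate number as a block. DESeq2 1.42.0 was an alternative. Deviations from pool means correlated at 0.348 to 0.652 in the 9 same-number pairs and at -0.478 to 0.0281 in the 18 others, so the numbers pair the libraries. The biological coefficient of variation was 37.6% without the block and 24.6% with it. All columns of the table were used. The edgeR script was tested on simulated data.

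Start sites and canonical transcript lengths came from GENCODE v44 lifted to GRCh37. Of 23441 symbols, 20654 matched directly, 1413 by an older symbol and 1374 not at all. Promoter windows came from RefSeq on GRCh38.p14, and no coordinate was carried between builds. Members and lists were chosen with earlier results of these data known. Named in full were AARS, the cytosolic and mitochondrial members with the largest ranges over numbers (6 and 3), the 3 with the smallest, members past a threshold or with the smallest p in a pool contrast, at most 4 genes per further list by range, and the 10 other genes most correlated with AARS. HARS, YARS2, QARS and single members in the peak paragraphs were named after their values were seen.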

Additional observations from a re-analysis of the deposited data

How the results depend on the processing

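The count of members called for HIF-1α re-expression against control was 0 without the replicate block and 1 with it (also with RLE factors). It was 5 in DESeq2 with the block, beside 21.6% of all genes, and 0 to 7 when 1 library was left out with or without the block. The 7 came from the fit with the block and without control library 1, which called 1333 higher and 1075 lower genes of 14512. For HIF-1α re-expressing against HIF-2α overexpressing cells the count of members was 0, 1, 1 (RLE), 1 (DESeq2) and 0 to 1. For HIF-2α overexpression it was 0 in all 25 alternatives. No member changed the sign of its fold change among CARS2, HARS, KARS, YARS2 and SARS2 in the contrasts named. The 12 cytosolic genes with replicate 1 on top stayed 12 to 13 in number without any 1 library, and the mitochondrial count was 1 to 2. The range of AARS was 2.02 in the control pool alone. The median cytosolic range was 1.23 in HIF-1α re-expressing cells alone, and the mitochondrial one 0.67 there and 0.54 in HIF-2α overexpressing cells alone (0.42 to 0.55 without 1 library). TGATG was in 13 member promoters, against 7 for TGATGNAA. With canonical starts, members with a HIF-2α peak within 10 kb numbered 1, 1 and 4 of 36, against 3, 2 and 7 with any start. The shares of all placed genes with canonical starts were 3.14%, 2.44% and 9.93%. Of 344 alternative values in all, 286 gave the same call or a count or value close to the main one. Fits that left out libraries with the block, RLE factors with the block and canonical starts were chosen after seeing the data. With 3 libraries per pool, and the single peak lists, a difference that missed the threshold is not shown to be absent.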
